A study of Arabidopsis thaliana with 8 samples.

Results

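Progress through the plant cell cycle depends on a small set of core regulators, and 47 Arabidopsis loci of this kind were examined, 47 of the 37573 rows of the count table. They were chosen by name and locus: 10 D-type, 8 A-type and 9 B-type cyclins, 5 cyclin-dependent kinases (CDKs), 7 KIP-RELATED PROTEIN (KRP) inhibitors, *SIAMESE* (*SIM*) with *SIAMESE-RELATED1* (*SMR1*), the kinase gene *WEE1*, and 5 genes of the E2F, DP and RETINOBLASTOMA-RELATED1 (RBR1) module. The rule used function and not the measured values, and 46 of the 47 passed the filter on low counts.

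RNA from hypocotyls was sequenced in 8 libraries, 4 from plants watered with mock solution and 4 from plants watered with 15 µM dexamethasone (DEX). All plants were 4 weeks old, were wild type apart from the *SMXL7pro:SMXL7d53-GR* transgene, were raised on soil in short and then long days, and were harvested 5 h after watering. The transgene expresses, from the endogenous *SMXL7* promoter, a strigolactone-resistant form of the repressor SMXL7 fused to the GLUCOCORTICOID RECEPTOR (GR), which DEX activates. The comparison asks which transcripts respond when this protein is activated, and therefore when output of strigolactone signalling is repressed.

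The mock solution held the solvent DMSO in the same volume. Plants of both treatments carried the transgene, and DEX-treated plants without it were not analysed here, so responses to DEX alone and to the activated fusion protein cannot be told apart. The number of hypocotyls per library and the number of independent transgenic lines are not given in the sources used here. The p-values measure the spread between these libraries, which may in part be technical.

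In the textbook account, D-type cyclins bind CDKA;1 in G1 phase and this kinase phosphorylates RBR1, which releases E2F-DP dimers to switch on S-phase genes. A-type cyclins act from S phase onwards, and B-type cyclins with CDKA and CDKB drive entry into mitosis. KRP and SIM-type proteins bind CDK-cyclin complexes and inhibit them, and WEE1 restrains them by phosphorylation. In the radially growing hypocotyl, divisions occur mainly in the vascular cambium, where *CYCD3* genes are known to promote proliferation. Genes of the G2-to-M transition often carry mitosis-specific activator elements, which MYB3R transcription factors bind, and many S-phase genes carry E2F elements.

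To see which members carry these elements, the promoters were searched on both strands for the core of each. A promoter was taken as the 250 bases before each RefSeq gene start in assembly TAIR10.1. The mitotic core CNAACGG occurred in 6 of 9 B-type cyclin promoters (66.7%), in 8 of the 46 tested members (17.4%) and in 1064 of the 21288 promoters of tested genes (5%). The other 2 members with a match were *CYCA1;1* and *DPA*. The E2F core was searched as TTTNNCGC, a loose pattern that leaves 2 bases open. It occurred in *CYCD3;2*, *CYCD3;3* and *RBR1*, 3 of 46 members (6.52%), and in 1264 promoters of tested genes (5.94%). No member promoter held both cores. A match describes the sequence and does not show that a factor binds there. *CYCD3;2* is the member that fell and has a match to the loose E2F pattern. Its match and those of the 6 B-type cyclins are shown with the bases around them, 5′ to 3′ on the gene's strand. Matches to either core are in capitals. All stretches lie outside annotated exons.
CYCB1;1, chr4:17624333-17624399, minus strand: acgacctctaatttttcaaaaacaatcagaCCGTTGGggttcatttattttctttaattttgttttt
CYCB1;2, chr5:1861704-1861878, minus strand: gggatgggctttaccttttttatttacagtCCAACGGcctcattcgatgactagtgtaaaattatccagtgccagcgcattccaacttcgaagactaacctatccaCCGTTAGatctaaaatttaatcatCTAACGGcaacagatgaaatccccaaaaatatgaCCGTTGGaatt
CYCB1;3, chr3:3627278-3627367, minus strand: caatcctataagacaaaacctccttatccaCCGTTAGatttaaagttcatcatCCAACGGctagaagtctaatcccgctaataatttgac
CYCB2;1, chr2:7663938-7664004, plus strand: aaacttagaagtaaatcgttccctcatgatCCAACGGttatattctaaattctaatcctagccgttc
CYCB2;2, chr4:16901394-16901506, plus strand: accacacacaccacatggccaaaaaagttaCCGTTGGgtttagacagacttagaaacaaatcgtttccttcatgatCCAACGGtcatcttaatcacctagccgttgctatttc
CYCB2;3, chr1:7137860-7137926, minus strand: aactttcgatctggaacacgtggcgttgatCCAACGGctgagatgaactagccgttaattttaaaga
CYCD3;2, chr5:26835998-26836065, plus strand: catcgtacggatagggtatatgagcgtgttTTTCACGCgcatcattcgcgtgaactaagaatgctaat

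*CYCB1;2* had 4 matches, *CYCB1;3* and *CYCB2;2* had 2 each, and the other 3 genes shown for the mitotic core had 1. *CYCB1;4*, *CYCB2;4* and *CYCB3;1* had none in this window.

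Raw totals ranged from 49220724 to 85953231 counts per mock library and from 47976811 to 63996960 per DEX library. Replicates were not identical within counting error, the chi-square per gene between libraries of a treatment being 6.03 to 24.3. Among 21289 tested genes, edgeR's quasi-likelihood test put 2320 (10.9%) higher and 1850 (8.69%) lower after DEX at a Benjamini-Hochberg adjusted p under 0.01. These numbers became 1922 and 2751 when libraries were scaled by their total counts alone. The median log2 fold change of all tested genes was -0.01. Marker genes of cambium, xylem, phloem and periderm were all detected, as the hypocotyl label requires.

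Changes in the core cell cycle set were small (the plot of log2 fold changes by class shows all of them). *KRP6*, *KRP7* and *DPA* rose, and *CYCD1;1*, *CYCD3;2*, *CYCA2;4* and *SIM* fell, at an adjusted p under 0.01. The remaining 39 tested members did not pass. Thus 3 of 46 members rose (6.52%, against 10.9% of all tested genes) and 4 of 46 fell (8.70%, against 8.69%). In this fit neither share stood above the background. The share that fell did so in other fits. The widest gaps were 17.4% of members against 9.55% of all tested genes with DESeq2 and 21.7% against 12.9% with total-count scaling. Without the filter on low counts it was 12.8% against 6.94%, without DEX replicate 1 19.6% against 7.95%, and without mock replicate 3 15.2% against 7.74%. Gaps were smaller in the remaining fits, such as 10.9% against 8.47% with the replicate block and 8.7% against 6.07% without DEX replicate 2. Differences between these shares were not tested. The log2 fold changes of the 46 members ran from -0.56 to 0.40 with a median of -0.07, and 28 values were below 0 and 18 above.

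No member met the 3 thresholds of the study's methods, namely an adjusted p under 0.01, a change of more than 1.5-fold in either direction and a mean normalised count above 50. Across all tested genes, 4.64% met them in the higher and 1.81% in the lower direction. DESeq2 likewise put 0 members past these thresholds in either direction, and at an unadjusted p under 0.05 edgeR placed 8 members higher and 17 lower (20.9% of all tested genes in each direction). In 6 members every DEX library was above every mock library (16.2% of all tested genes were of this kind), and in 8 every DEX library was below every mock library (15.1% of all tested genes). Since whole hypocotyls were sequenced, fewer cells of a type and less RNA per cell cannot be told apart in any of these values.

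**Figure D1:**
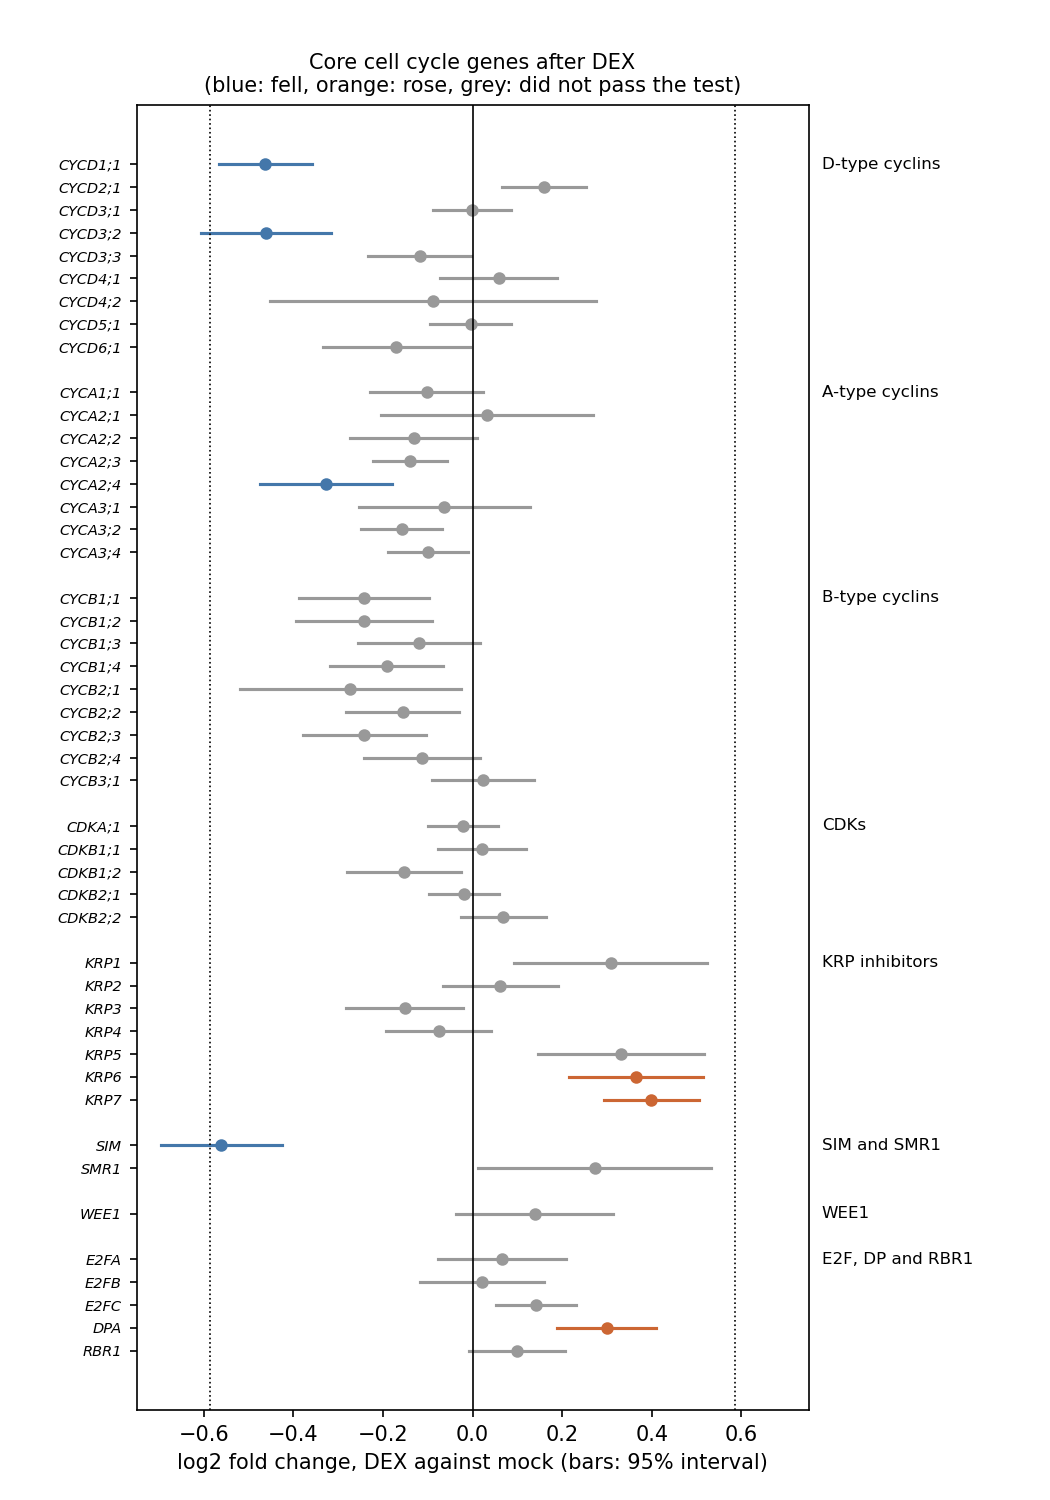
log2 fold change of DEX against mock (horizontal axis) for the 46 tested core cell cycle genes, grouped by class, with points for estimates and bars for 95% intervals from edgeR, n = 4 libraries per treatment. Dotted lines mark a 1.5-fold change in either direction. Only the intervals of *SIM* and *CYCD3;2* reach past a dotted line, and no estimate does. *SIM* was lowest at -0.56 and *KRP7* highest at 0.40.

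Among the D-type cyclins, which start the cycle in G1, *CYCD1;1* and *CYCD3;2* fell (22.2%, against 8.69% of all tested genes) and none rose. The median log2 fold change of the 9 tested genes was -0.09. *CYCD1;1* (AT1G70210, chromosome 1, 26439556 to 26443007), known for its early activation in germinating seeds, had normalised read counts of 1412, 1475, 1314 and 1421 in mock replicates 1 to 4 and of 1003, 1058, 997.8 and 1015 in DEX replicates 1 to 4. The treatments did not overlap, and the means were 1405 ± 66.7 and 1018 ± 27.2 (SD, n = 4). Its transcript abundance fell by 0.46 on the log2 scale (SE 0.05, 95% interval -0.57 to -0.36, adjusted p = 1.23e-05 by edgeR), a change of -27.4%.

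*CYCD3;2* (AT5G67260, chromosome 5, 26836139 to 26839597) belongs to the cytokinin-responsive *CYCD3* subgroup that promotes cambial divisions. It gave 5437, 5886, 5215 and 5355 normalised counts in mock and 4530, 3732, 3620 and 4021 in DEX libraries. DEX replicate 1 was the highest of the DEX libraries but still below every mock library. As in *CYCD1;1*, the change was -27.4%, or -0.46 on the log2 scale (SE 0.07, 95% interval -0.61 to -0.32, adjusted p = 0.000253 by edgeR).

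The 3 *CYCD3* paralogues differed in their values. *CYCD3;1* (AT4G34160), the most abundant D-type cyclin, had 8745, 8861, 9370 and 8599 normalised counts in mock and 9144, 8714, 8872 and 8834 in DEX libraries. These ranges overlapped almost completely, and its log2 fold change was -0.00 (95% interval -0.09 to 0.09, adjusted p = 0.992). This interval lies apart from that of *CYCD3;2*, although the difference between both genes was not tested. *CYCD3;3*, which has matches to the loose E2F pattern on both strands, stood at -0.12 (adjusted p = 0.111). Per kilobase of exon, the mock levels were 78.3 CPM (read counts scaled to a common library total) for *CYCD3;1*, 53.7 for *CYCD3;2* and 31.2 for *CYCD3;3*, and the level of *CYCD3;2* was 39.0 in DEX libraries. A neighbouring gene that overlaps 2.13% of the exon bases of *CYCD3;1*, AT4G34150, rose by 2.08 (log2, adjusted p = 3.37e-05). Reads in such an overlap were not counted for either gene.

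The other D-type cyclins did not pass the test. *CYCD2;1*, which acts in G1 and responds to sugar, had a value of 0.16 (adjusted p = 0.0142), with mock libraries between 1849 and 1942 normalised counts and DEX libraries between 1988 and 2234. *CYCD4;1* stood at 0.06 and *CYCD5;1* at -0.00. *CYCD6;1*, known for formative divisions of the root ground tissue downstream of SHR and SCR, stood at -0.17 (adjusted p = 0.106). *SCR* itself, which was measured as a root primordium marker, fell by 0.41 on the log2 scale (adjusted p = 0.00121), whereas *SHR* stood at -0.01 (adjusted p = 0.859). *LBD16*, the other tested gene of the root primordium list, stood at 0.15 (adjusted p = 0.79 by edgeR). *LBD29*, *PLT1* and *PLT2* had too few counts to be tested. A link between *SCR* and *CYCD6;1* was not tested. *CYCD4;2* was the least abundant tested member with a mock level of 0.735 CPM per kilobase, and its interval was correspondingly wide, from -0.45 to 0.27. *CYCD7;1*, a cyclin of the last division that forms guard cells, had raw counts of 0, 1, 0 and 1 in mock and 0, 2, 0 and 0 in DEX libraries and was not tested.

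**Figure D2:**
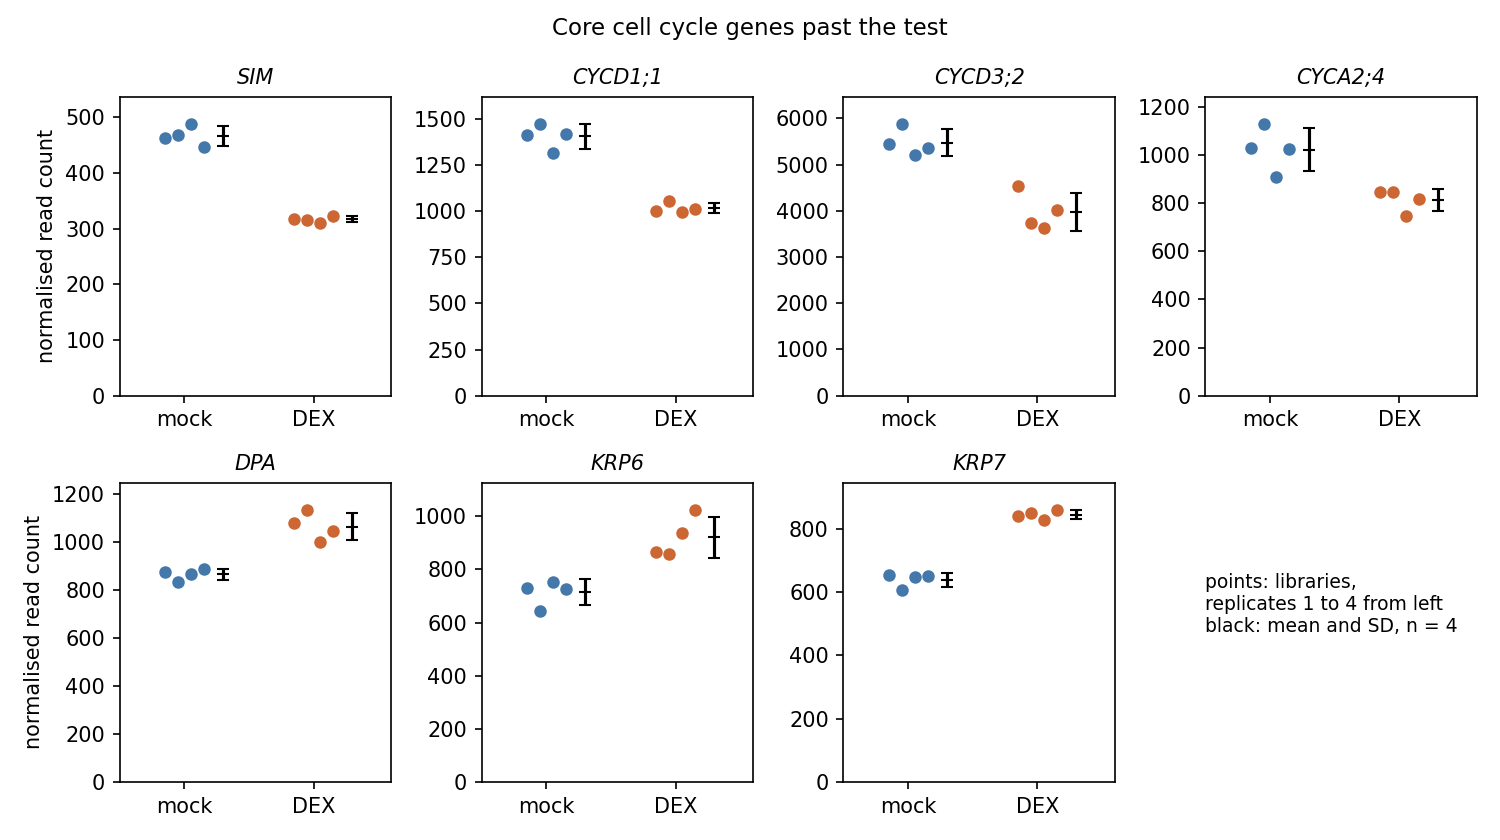
Normalised read counts (vertical axis, from 0) of the 7 core cell cycle genes past the test, with 1 point per library, replicates 1 to 4 from left, and black bars for mean and SD (n = 4). In each of the 7 genes the mock and DEX libraries form separate ranges. *SIM* and *KRP7* show the tightest DEX groups, at 311 to 323 and 827 to 860.

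In the A-type class, *CYCA2;4* fell (12.5% of the class, against 8.69% of all tested genes) and the 7 other genes did not pass. The class median was -0.12. *CYCA2;4* (AT1G80370, chromosome 1, 30213705 to 30217102) belongs to the CYCA2 group, which works with CDKB1 kinases and is known for limiting endoreduplication and for the divisions of the stomatal lineage. Its normalised counts were 1027, 1130, 909.1 and 1023 in mock and 845.3, 845.6, 745.5 and 815.9 in DEX libraries. The lowest mock library, replicate 3, was still above all DEX libraries. The log2 fold change was -0.33 (SE 0.07, 95% interval -0.47 to -0.18, adjusted p = 0.00286 by edgeR), the largest adjusted p among the members that passed. Without DEX replicate 3 it no longer passed (log2 fold change -0.29, adjusted p = 0.0106).

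*CYCA3;2* (AT1G47210), an S-phase type and the most abundant A-type gene, had closely grouped mock values of 2999, 3003, 2973 and 2987 and DEX values of 2892, 2641, 2578 and 2612. All DEX libraries were lower, with DEX replicate 1 nearest to mock, and the log2 fold change of -0.16 (95% interval -0.25 to -0.07, adjusted p = 0.0116) lay just outside the threshold. In 5 of 8 A-type genes, *CYCA2;2*, *CYCA2;3*, *CYCA2;4*, *CYCA3;2* and *CYCA3;4*, no DEX library reached the mock range, as in 15.1% of all tested genes. Among the others, *CYCA1;1*, which peaks around mitosis, stood at -0.10 and *CYCA3;1* at -0.06. *CYCA2;3* (-0.14, adjusted p = 0.0147), known for repressing endoreduplication, had 2039 to 2167 normalised counts in mock and 1859 to 1959 in DEX libraries. *CYCA2;1*, the least abundant of the class at 1.14 CPM per kilobase in mock, was the single A-type gene with a value above 0 (0.03, adjusted p = 0.849).

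None of the 9 B-type cyclins, which drive entry into mitosis, passed the test with all 8 libraries, although 8 of the 9 values were below 0 and the class median was -0.19. At an unadjusted p under 0.05 edgeR placed 6 of the 9 lower and 0 higher, where 20.9% of all tested genes lay in each direction, and DESeq2 put 3 past an adjusted p of 0.01. *CYCB1;2* (AT5G06150), the most abundant, had normalised counts of 2632, 2688, 2392 and 3008 in mock and 2507, 2229, 2160 and 2158 in DEX libraries. DEX replicate 1 lay inside the mock range and the other 3 below it. The log2 fold change was -0.24 (SE 0.07, 95% interval -0.39 to -0.09, adjusted p = 0.0204 by edgeR).

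*CYCB1;1* (AT4G37490), the usual reporter of cells in G2 and M phase, gave 1038, 1099, 1023 and 1091 in mock and 1041, 847.6, 840.1 and 864.7 in DEX libraries. Again only DEX replicate 1 was within the mock range (log2 fold change -0.24, adjusted p = 0.0154). *CYCB2;3* (AT1G20610) had 977.4, 965.8, 919.7 and 1028 in mock against 920.9, 763.8, 783.8 and 823.6 in DEX libraries, and here the lowest mock library was just under DEX replicate 1 (log2 fold change -0.24, SE 0.06, adjusted p = 0.011). With the replicate number as a block it passed. *CYCB2;1* had the lowest value of the class, -0.27, and the widest interval, from -0.52 to -0.03. *CYCB1;4* (-0.19, adjusted p = 0.0245) and *CYCB2;2* (-0.16, adjusted p = 0.0591) lay between these and *CYCB1;3* (-0.12) and *CYCB2;4* (-0.11), whose intervals included 0. *CYCB3;1*, a more distant B-type cyclin, stood at 0.02.

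The same library stood apart across the class (the plot of B-type cyclins by library). DEX replicate 1 was the highest DEX library in 8 of 9 B-type genes and inside the mock range in 8, while the other 3 DEX libraries were all below every mock library in 7 of 9. The last criterion, set after DEX replicate 1 was seen to differ, held in 18.7% of all tested genes. The first 2 criteria were not counted over all tested genes. DEX replicate 1 was also the highest DEX library in 7 of 9 D-type and 6 of 8 A-type genes, and inside the mock range in 4 and 2 of these. Among CDK and KRP genes it was the highest DEX library in 2 of 5 and 1 of 7. Relative to the mock mean, the class median was -1.71% in DEX replicate 1 and -14.6%, -16.3% and -13.7% in DEX replicates 2 to 4. Mock libraries also spread, from -6.03% in replicate 3 to 8.25% in replicate 4. Without DEX replicate 1, 4 B-type cyclins (*CYCB1;1*, *CYCB1;2*, *CYCB2;1* and *CYCB2;3*) passed as lower, and 9 of 46 members in all (19.6%, against 7.95% of all genes tested in that fit). Without mock replicate 3, 3 B-type cyclins and 7 members did (15.2%, against 7.74%). What distinguishes these libraries was not tested.

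**Figure D3:**
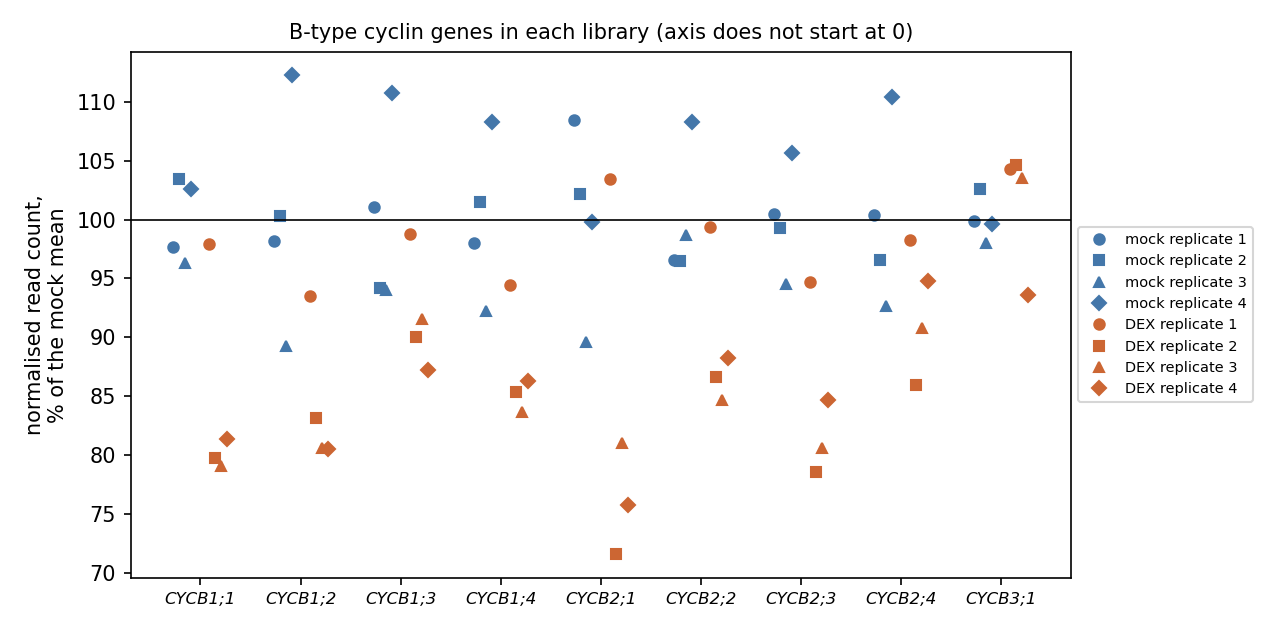
Normalised read count of each B-type cyclin gene in each library as a percentage of its mock mean (vertical axis, which does not start at 0), with blue symbols for mock, orange for DEX and 1 symbol shape per replicate number. DEX replicate 1 (circles) lies near 100% for most genes, at a class median of -1.71% from the mock mean, and the other DEX libraries lie lower, at -13.7% to -16.3%.

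Transcripts of the kinases themselves showed no change past the test. *CDKA;1* (AT3G48750), the kinase needed in both G1 and G2 and the most abundant member per kilobase (88.0 CPM in mock), had 7814, 8036, 8120 and 8002 normalised counts in mock and 7867, 7773, 7783 and 8091 in DEX libraries. The treatments overlapped, and the log2 fold change was -0.02 (95% interval -0.10 to 0.06, adjusted p = 0.704). The mitotic kinase genes *CDKB1;1* (0.02), *CDKB2;1* (-0.02) and *CDKB2;2* (0.07) had values of similar size, and *CDKB1;2* stood at -0.15 (adjusted p = 0.0662). edgeR placed 1 CDK lower and 0 higher at an unadjusted p under 0.05, and DESeq2 put 0 past an adjusted p of 0.01. Neighbouring genes overlap 18.3% of the exon bases of *CDKB1;2* and 13.8% of those of *CDKB2;2*, and reads there were not counted.

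Inhibitor genes of the KRP family had the highest class median, 0.31 for 7 genes. In this class 2 genes rose (28.6%, against 10.9% of all tested genes) and 0 fell (8.69% of all tested genes did). *KRP7* (AT1G49620, chromosome 1, 18365336 to 18366744) had normalised counts of 653.7, 605.7, 646.7 and 650.8 in mock and 840.2, 849.5, 826.6 and 859.5 in DEX libraries. The gap between treatments was far wider than the spread within either (639.2 ± 22.5 and 844 ± 14.0, SD, n = 4). Its transcript abundance rose by 0.40 on the log2 scale (SE 0.05, 95% interval 0.29 to 0.50, adjusted p = 5e-05 by edgeR), or by 31.9%.

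*KRP6* (AT3G19150, chromosome 3, 6616330 to 6617951), which with KRP7 is best known as a target of protein degradation in the male germline, had 730, 642.3, 753.6 and 728 in mock and 865.4, 858.2, 938.1 and 1024 in DEX libraries. The treatments did not overlap and the rise was 0.36 (SE 0.07, 95% interval 0.21 to 0.51, adjusted p = 0.00146 by edgeR), or 28.7%. *KRP5* (AT3G24810), which is known to act on endoreduplication in the hypocotyl, gave 605.3, 651.8, 765.6 and 655.7 in mock and 817.6, 965.1, 768 and 819.8 in DEX libraries. The highest mock and lowest DEX library nearly met, and the value of 0.33 (95% interval 0.15 to 0.52, adjusted p = 0.0105) fell just outside the threshold.

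The other KRP genes did not share a sign. *KRP1*, an inhibitor that can pass between neighbouring cells of the leaf epidermis, stood at 0.31 (adjusted p = 0.0324). *KRP2* (AT3G50630), the most abundant KRP and known for its repression by auxin during lateral root initiation, had 1853, 1876, 1707 and 2056 normalised counts in mock and 1861, 2065, 1848 and 2031 in DEX libraries, with overlapping ranges and a value of 0.06 (95% interval -0.07 to 0.19). *KRP3* (-0.15) and *KRP4* (-0.08) lay on the other side of 0, with adjusted p of 0.0724 and 0.32. A neighbour overlaps 38.7% of the exon bases of *KRP4*.

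*SIM* (AT5G04470, chromosome 5, 1266625 to 1267416), whose product blocks mitosis in favour of endoreduplication in trichomes, had the largest decrease of all members. Its normalised counts were 462.7, 468.7, 488.3 and 445.9 in mock and 317.5, 315, 310.8 and 323.3 in DEX libraries. Both groups were tight and far apart, at 466.4 ± 17.5 and 316.6 ± 5.22 (SD, n = 4). The log2 fold change was -0.56 (SE 0.06, 95% interval -0.70 to -0.43, adjusted p = 2.26e-05 by edgeR), or -32.2%. With total-count scaling it passed the 1.5-fold threshold and was then the single member to do so. The gene AT5G04475 overlaps 31.4% of the exon bases of *SIM*, and reads in the shared stretch were not counted for either gene. The 0 counts of AT5G04475 in all 8 libraries therefore do not show that it is silent.

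*SMR1*, a related inhibitor known for the giant cells of the sepal epidermis, lay on the opposite side of 0 at 0.27 (95% interval 0.01 to 0.53, adjusted p = 0.104), with 118 to 162 normalised counts in mock and 154 to 184 in DEX libraries. *WEE1* (AT1G02970), a kinase gene of the DNA replication checkpoint in Arabidopsis, had 567.5, 632.9, 501.7 and 617.1 in mock and 702.9, 639.5, 596.9 and 601.7 in DEX libraries. These overlapped, and the value was 0.14 (95% interval -0.04 to 0.31, adjusted p = 0.217).

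In the E2F, DP and RBR1 module, *DPA* rose (20% of the module genes, against 10.9% of all tested genes). All 5 values were above 0, or 4 of 5 with total-count scaling. *DPA* (AT5G02470, chromosome 5, 542318 to 544955) encodes a dimerisation partner that E2F proteins need to bind DNA. Normalised counts were 874, 832.4, 867.6 and 889.5 in mock and 1078, 1135, 1000 and 1048 in DEX libraries, with no overlap. The log2 fold change was 0.30 (SE 0.05, 95% interval 0.19 to 0.41, adjusted p = 0.000664 by edgeR), or 23.1%.

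*E2FC*, which mainly represses its targets, was higher in every DEX than in any mock library (1814 to 1939 against 1656 to 1773) but had an adjusted p of 0.0202 at a value of 0.14. The activators *E2FA* and *E2FB* stood at 0.07 and 0.02. *RBR1* (AT3G12280), the repressor of E2F activity and most abundant gene of the module, had 6254, 6482, 5531 and 5991 in mock and 6445, 6724, 6453 and 6363 in DEX libraries. Only mock replicate 2 reached into the DEX range, and the value was 0.10 (95% interval -0.01 to 0.21, adjusted p = 0.145). The 5 module genes had a median of 0.10.

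To place these values within the wider machinery, 65 tested genes of 67 further cell cycle genes were read by role. Of these, 1 rose (1.54%, against 10.9% of all tested genes) and 4 fell (6.15%, against 8.69%). The other 60 did not pass, and the median was -0.04. Among 21 genes of replication origin licensing and the replication fork, 10 promoters (47.6%, against 5.94% of all tested genes) had a match to the loose E2F pattern. The median of these 21 genes was 0.05. edgeR put 0 of them past the test, with 2 higher and 2 lower at an unadjusted p under 0.05, and DESeq2 also 0. The number with a value above 0 was 17, or 10 with total-count scaling.

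For 12 genes of mitosis and cytokinesis, all values were below 0, the median was -0.23, and 4 of 12 genes (33.3%, against 8.69% of all tested genes) fell. *TPX2*, a spindle assembly factor, fell by 0.28 on the log2 scale (adjusted p = 0.000521), with 2613, 2534, 2534 and 2691 normalised counts in mock and 2304, 2114, 2130 and 2021 in DEX libraries. The Aurora kinase gene *AUR2* (-0.24, adjusted p = 0.00477), the cytokinetic kinesin gene *HINKEL* (-0.24, adjusted p = 0.00492) and *CDC20.1*, an activator of the anaphase-promoting complex (-0.29, adjusted p = 0.00507), were the other 3. *TPX2* passed whichever library was left out, but *AUR2* did not pass in 6 of these 8 fits, and *HINKEL* and *CDC20.1* in 5 each, with adjusted p of at most 0.0193. DEX replicate 1 was again the highest DEX library, in 10 of 12 genes. The mitotic core was found in 4 of the 12 promoters (33.3%, against 5% of all tested genes).

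No gene of the MYB3R factors (4 genes, median 0.01), of the anaphase-promoting complex list (5 genes, median -0.03), of the CDK-activating kinases and CKS subunits (7 genes, median -0.04) or of the further cyclins, E2F and DP genes (5 tested genes, median -0.04) passed. In the same order, edgeR placed 0, 1, 1 and 1 genes higher and 0, 1, 0 and 0 lower at an unadjusted p under 0.05, and DESeq2 put 0 of each past an adjusted p of 0.01. The 5 histone H3.1 genes, expressed in S phase, had a median of -0.04 and 0 past either test, and reads from these near-identical copies are partly lost when only unique mapping is kept. The mitotic core occurred in 3 of their 5 promoters (60%, against 5% of all tested genes), and so did the loose E2F pattern (60%, against 5.94%). Among 6 tested further *SMR* genes, *SMR6* rose by 0.40 (adjusted p = 0.00831), with 327 to 469 normalised counts in mock and 462 to 507 in DEX libraries. It did not pass with total-count scaling (adjusted p = 0.0169) or in 7 of the 8 fits without 1 library (adjusted p of at most 0.0258), the exception being the fit without mock replicate 4. *SMR4* had the largest value, 0.66, at few counts and an adjusted p of 0.0145.

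**Figure D4:**
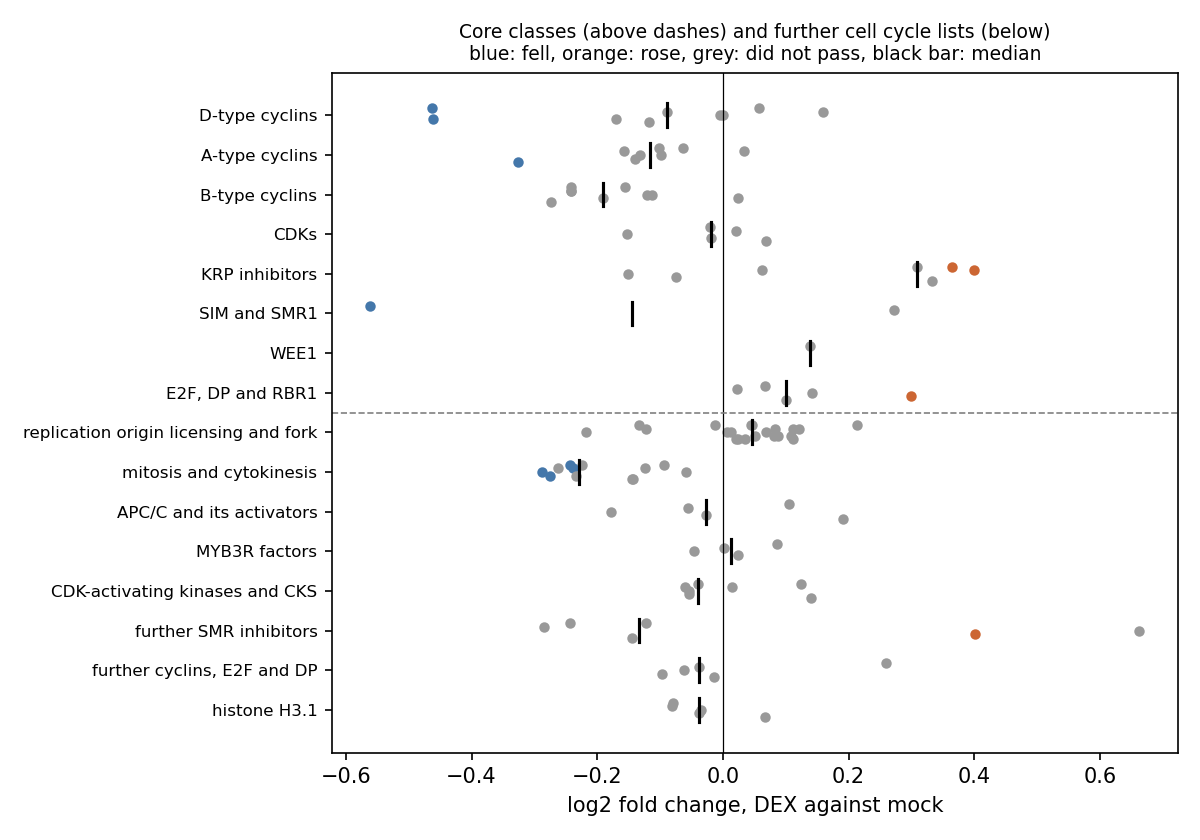
log2 fold change of DEX against mock for each tested gene (points, horizontal axis), by core class above the dashed line and by further cell cycle list under it, with black bars for medians. Blue points fell, orange points rose and grey points did not pass. Mitosis and cytokinesis genes all lie left of 0 with a median of -0.23, while replication genes centre on 0.05 and KRP inhibitors on 0.31.

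Abundances of some cell type markers moved with the treatment as well. Of the stomatal lineage list, whose cells divide asymmetrically, 4 of 5 tested genes fell and all 4 met the 3 thresholds (1.81% of all tested genes did so): *TMM* (-1.68), *SPCH* (-1.41), *EPF2* (-1.07) and *FAMA* (-0.84), whereas *SDD1* stood at 0.07. *MUTE* and *EPF1* had too few counts to be tested. The summed normalised count of the 5 tested genes was 1253 to 1870 in mock and 588 to 843 in DEX libraries, highest in DEX replicate 1, a ratio of 0.426. Summed counts of the B-type cyclins were 10362 to 11989 in mock and 9451 to 10761 in DEX libraries, a ratio of 0.885, also highest in DEX replicate 1 among DEX libraries. Those of the mitosis list were 21791 to 24670 and 19217 to 21292. The part of stomatal lineage cells in the values of the mitotic genes was not tested.

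The summed count of the cambium markers was 29018 to 30385 in mock and 31985 to 33874 in DEX libraries. *LBD4* (0.52) and *TMO6* (0.20) rose, *WOX4* fell by 0.21, and *ANT* (0.01) and *PXY* (0.15) did not pass. Without 1 library, *TMO6* did not pass in 4 of 8 fits and *WOX4* in 6 of 8, and *TMO6* did not pass with total-count scaling (adjusted p = 0.0233). Xylem and periderm lists had 0 of 4 and 0 of 3 genes past edgeR's test (1 xylem gene higher at an unadjusted p under 0.05, and 0 in either list by DESeq2). In phloem, *APL* rose by 0.28, *SUC2* fell by 0.26, and *SEOR1*, with the most counts of the 3, stood at -0.03 (adjusted p = 0.689). Of the shoot meristem list, *STM* rose by 0.53 and *LFY* fell by 1.15 on the log2 scale, while *CLV3* (-0.15), *CUC1* (-0.04) and *CUC2* (-0.08) did not pass. The median of the 5 was -0.08, and *WUS* had too few counts to be tested. Mean normalised counts in mock libraries were 7780 for *STM* and 20.3 for *CLV3*, and the tissue that gave the *STM* reads was not tested. Whether shifts in tissue composition enter the values of the cell cycle genes was not tested.

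**Figure D5:**
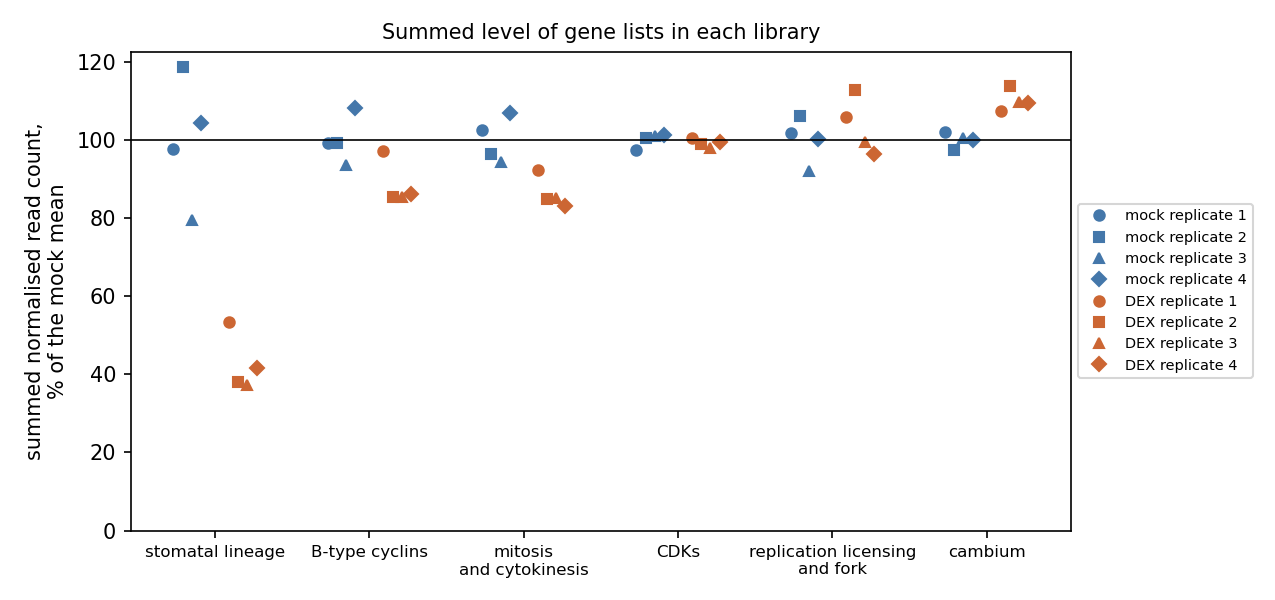
Summed normalised read counts of 6 gene lists in each library as a percentage of the mock mean (vertical axis, from 0), with blue symbols for mock, orange for DEX and 1 symbol shape per replicate number. Stomatal lineage sums drop to a ratio of 0.426, B-type cyclin and mitosis sums to 0.885 and 0.863, and CDK sums stay at 0.992.

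The precision of several members depends on how unambiguously reads could be assigned. *CYCB1;2* shares 97.9% identity over 386 bases with AT1G34460, which had 4805 counts and a value of -0.28 (adjusted p = 0.244). *CYCB2;3* shares 95.1% over 618 bases with AT1G20590, which had 12 counts. *CDKB2;1* and *CDKB2;2* match each other over 957 bases, and *CYCA3;2* and *CYCA3;3* share 84.4% identity over 876 bases. Exon overlap with another gene was highest for *SMR1* (40.3%), followed by *KRP4*, *SIM* and *CYCD6;1* (24.4%). The values of these genes are less certain than their standard errors show.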

How the data were processed

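RNA of mock- and DEX-treated *SMXL7pro:SMXL7d53-GR* hypocotyls was sequenced as poly(A) libraries, with treatment and replicate number as the sample titles give them. The authors mapped reads with STAR 2.7.8a, discarded those that mapped to more than 1 place, and counted the rest per gene in union mode without regard to strand, so that reads in exons of overlapping genes were dropped. The submitters' processing notes name build TAIR10, and the annotation release is not given in the sources used here. All tests used the raw gene-level counts that the authors deposited. They also deposited a signal table, raw counts divided by a DESeq2 1.34.0 size factor per library, which served only to compare library scaling.

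The test was the quasi-likelihood F test of edgeR 4.0.16 (R 4.3.3, two-sided, robust) on counts of all 8 libraries, with TMM scaling, filterByExpr and treatment as the only term. P-values were adjusted by Benjamini-Hochberg over 21289 genes, and "rose" and "fell" mean an adjusted p under 0.01. Normalised counts are counts scaled by TMM to the mean effective library size. The standard error of a log2 fold change was taken as its absolute value over the root of the F statistic. Code was tested on simulated data. Precision was limited by the number of libraries, and for members with few counts also by depth. The alternatives were DESeq2 1.42.0, 2 other library scalings, no filter on low counts, a replicate block, other thresholds and leaving out each library in turn.

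Gene models, promoters and overlaps come from the RefSeq annotation of TAIR10.1, and near-identical copies from blastn 2.17.0, keeping alignments of 75 bases or longer. Values in every library are given for each member past the test and for the most abundant member of each class. From each further list, up to 3 genes with the smallest p among those past the test are named. Other named genes were chosen after their values were seen. The members and lists were chosen with earlier results of these data known.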

Additional observations from a re-analysis of the deposited data

Results flagged for a closer look

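In 7 of 92 sets of 4 libraries (46 genes in each treatment), 1 library lay far from the other 3 by Dixon's criterion, which chance alone meets in about 1 of 20 sets. Among DEX libraries, replicate 1 was high for *CYCB1;1* (1041 normalised counts, against 840 to 865 in the others) and for *CYCD3;3* (2782, against 2382 to 2438), and replicate 4 was low for *CYCB3;1* (706, against 780 to 789). Among mock libraries, replicate 2 was high for *CYCD2;1* (1942, against 1849 to 1862) and low for *KRP3* (1538, against 1628 to 1634) and *KRP7* (606, against 647 to 654). Mock replicate 1 was low for *CDKB2;1* (3136, against 3217 to 3223). The cause was not tested for any of them.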

How the results depend on the processing

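As reported, 3 members rose and 4 fell. DESeq2 gave 5 and 8, and an adjusted p under 0.05 gave 7 and 10. With total-count scaling 10 fell, and without the filter on low counts 4 rose and 6 fell. Of the members called with all 3 thresholds (0 and 0), dropping the fold change threshold gave 3 higher and 4 lower, and total-count scaling gave 1 lower. Testing against the fold change threshold itself gave 0 and 0. Leaving out each library in turn gave 3 to 4 that rose and 3 to 9 that fell, with 0 called in either direction. The highest numbers that fell were 9 without DEX replicate 1 and 7 without mock replicate 3, and the lowest was 3 without DEX replicate 3. *KRP6*, *KRP7*, *DPA*, *CYCD1;1*, *CYCD3;2* and *SIM* passed under every alternative tried for single genes. None of the members that rose or fell changed sign under these alternatives. Total-count scaling moved the median of all tested genes by -0.05. The cause of these differences was not tested.

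Same-numbered mock and DEX libraries did not deviate together (correlations of 0.01, 0.05, 0.07 and -0.01), and differently numbered ones ran from -0.13 to 0.16. These values gave no sign of pairing by replicate number. They cannot show whether plants were grown or harvested in matched sets, which the sample titles do not say. With the replicate block 3 members rose and 5 fell, the additional one being *CYCB2;3*. With 4 libraries per treatment, the test did not separate the changes of the B-type cyclins from the spread of these genes between libraries. Changes of similar size passed in other genes, such as *TPX2* (-0.28). Genes with few counts, such as *CYCD4;2*, *CYCA2;1* and *SMR1*, have wide intervals.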
